A study of Homo sapiens with 15 samples.

Results

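The miR-30 family was followed in U87-MG, an established cell line from a human glioblastoma, as 8 mature miRNAs chosen by name: hsa-miR-30a-5p, hsa-miR-30b-5p, hsa-miR-30c-5p, hsa-miR-30d-5p and hsa-miR-30e-5p from the 5p arms of their hairpins, and hsa-miR-30a-3p, hsa-miR-30d-3p and hsa-miR-30e-3p from the 3p arms. These were 8 of the 1707 miRNAs listed, and all 8 were among the 562 that passed the filter on low counts. The 3 remaining strands of miR-30 hairpins, miR-30b-3p, miR-30c-1-3p and miR-30c-2-3p, were examined beside them. The miRNA-Seq data held 5 groups of 3 libraries. Control cells, in which neither HIF1α nor HIF2α was targeted, were grown for 24 h in 21% O2 (normoxia) or in 1% O2 (hypoxia). In HIF1α-KO cells HIF1α, in HIF2α-KO cells HIF2α, and in HIF1α/HIF2α-KO cells both had been targeted with Cas9 and sgRNAs delivered by lentivirus, and the 3 lines were grown for 24 h in 1% O2. The sources used here do not say whether the knockout cells were single clones or pools, or whether the 3 libraries of a group came from separate cultures, so that p-values measure the spread between these libraries, which may be technical.

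Each miR-30 hairpin is cut to a 5p and a 3p strand, of which 1 is usually retained as the guide that an Argonaute protein holds while the other is discarded. The guide pairs with mRNAs mainly through its seed, the bases 2 to 8 from its 5′ end, and lowers their translation and stability. The 5p strands of the family share a seed and are the usual guides; their known targets include SNAI1, a driver of epithelial-mesenchymal transition, and BECN1, an autophagy gene. HIF1α and HIF2α are the oxygen-regulated subunits of the transcription factors that act under hypoxia, and the comparisons asked how the loss of either or both altered miRNA levels.

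The strands whose counts carry the results are shown 5′ to 3′ from RefSeq (GRCh38.p14), with the seed in capitals. The RefSeq table matched 5 of the 8 members, all but hsa-miR-30b-5p, hsa-miR-30d-5p and hsa-miR-30d-3p, and both miR-30c 3p strands.
hsa-miR-30a-5p: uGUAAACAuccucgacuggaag
hsa-miR-30e-5p: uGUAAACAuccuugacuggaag
hsa-miR-30c-5p: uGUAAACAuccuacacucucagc
hsa-miR-30a-3p: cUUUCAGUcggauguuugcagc
hsa-miR-30e-3p: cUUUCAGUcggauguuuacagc
hsa-miR-30c-1-3p: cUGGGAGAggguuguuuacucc
hsa-miR-30c-2-3p: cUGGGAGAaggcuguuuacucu
The 3 5p strands had the same seed, the 3p strands of miR-30a and miR-30e had another, and those of miR-30c had one of their own. Among the 1545 listed miRNAs with a RefSeq sequence, no miRNA outside the family shared the seed of any of the 5 matched members. With positions counted from 1 at the 5′ end, miR-30a-5p and miR-30e-5p differed at a single base, C13U, and miR-30a-3p and miR-30e-3p at a single base, G18A. miR-30a-5p and miR-30c-5p differed at 5 of the first 22 bases, and miR-30c-1-3p and miR-30c-2-3p at G9A, U12C and C22U.

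The hairpins of the strands shown above lay in 2 pairs. Those of miR-30b and miR-30d were not placed here, because the RefSeq table held none of their strands. MIR30A (chr6:71403551-71403621) and MIR30C2 (chr6:71376960-71377031) were on the minus strand with 26519 bases between them, and both lay in introns of the long noncoding RNA gene LINC00472, overlapping no exon of the 2 transcripts that span each, and of the lincRNA AL136164.2, which overlaps LINC00472 there. MIR30E (chr1:40754355-40754446) and MIR30C1 (chr1:40757284-40757372) were on the plus strand with 2837 bases between them, in introns of NFYC, which encodes a subunit of the CCAAT-binding factor NF-Y, and overlapped no exon of the 16 transcripts that span each. The strands are those of the host genes. Coordinates are from GENCODE v29 and RefSeq on GRCh38, and the build the authors used is not given in the sources used here. miR-30c-5p can be cut from MIR30C1 or MIR30C2 and its count cannot be assigned to either, whereas miR-30c-1-3p and miR-30c-2-3p name the hairpin they come from.

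Total counts ranged from 10360337 to 22496373 per library, and the detection floor of 3 counts was no more than 0.290 CPM (counts scaled to a library of 1e+06), counting error only. The knocked-out mRNAs are not part of this assay. miR-210-3p, the best known miRNA target of HIF1α, had a log2 change of -1.76 in HIF1α-KO cells (adjusted p = 0.0126, edgeR) and of -2.21 in HIF1α/HIF2α-KO cells (adjusted p = 0.00402). Its log2 change in HIF2α-KO cells was 0.57 (adjusted p = 0.400), and between hypoxic and normoxic control cells it was -0.19 (adjusted p = 0.841). The 4 miRNAs chosen as abundant in glioblastoma cells summed to between 198096 and 301253 CPM in every library. Markers of other cells summed to 4.01 to 50.8 CPM (2 endothelial miRNAs), 4.54 to 24.0 (7 of blood), 1.63 to 45.1 (3 of muscle), 132 to 538 (3 of stroma), 37.5 to 116 (5 of epithelium) and 1324 to 2562 (3 of neurons), and the liver marker was not analysed here. Among them, miR-126-5p, miR-223-3p, miR-144-3p, miR-144-5p, miR-206 and the neuronal miR-124-3p had a count of 0 in at least 1 library. miR-124-3p reached at most 0.539 CPM, so that the neuronal sum was made up of miR-128-3p and miR-129-5p. Split at the largest gap in the summed level of both miR-126 strands, 6 libraries stood apart as low (4.01 to 6.64 CPM, against 14.0 to 50.8 CPM), namely control hypoxia 2 and 3, HIF1α-KO 1 and 2, HIF2α-KO 2 and HIF1α/HIF2α-KO 3. All 3 normoxic libraries were among the other 9, so that in the hypoxia against normoxia comparison only control hypoxia 1 shared a set with them.

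The 8 members together held between 0.975% and 1.40% of a library's counts, and the 5p members held 84.6% ± 2.03 (SD, n = 15) of the members' counts. A read covers a whole mature strand, so levels are compared between strands as TMM-normalised CPM without a length term. Whether strands of different sequence were captured equally well was not tested, so that orders and ratios between strands are those of counts. miR-30d-5p was the highest in every library, with a median of 4350 CPM (range 3672 to 6465). miR-30c-5p followed at 2460 CPM (1816 to 3252) and miR-30a-5p at 1891 CPM (1391 to 3257). This order did not hold throughout, since miR-30c-5p lay above miR-30a-5p in 11 of 15 libraries and below it in all 3 HIF1α/HIF2α-KO libraries and in HIF2α-KO 2. miR-30e-3p, miR-30a-3p and miR-30e-5p had close medians of 863, 851 and 762 CPM, and miR-30a-3p exceeded miR-30e-5p in 12 of 15 libraries. miR-30b-5p had a median of 227 CPM (181 to 394). At the bottom were miR-30c-2-3p (30.4 CPM), miR-30c-1-3p (17.6 CPM), miR-30d-3p (15.6 CPM) and miR-30b-3p (9.61 CPM). miR-30c-1-3p lay above miR-30d-3p in 12 of 15 libraries, and miR-30d-3p rested on 123 to 360 counts per library.

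**Figure D1:**
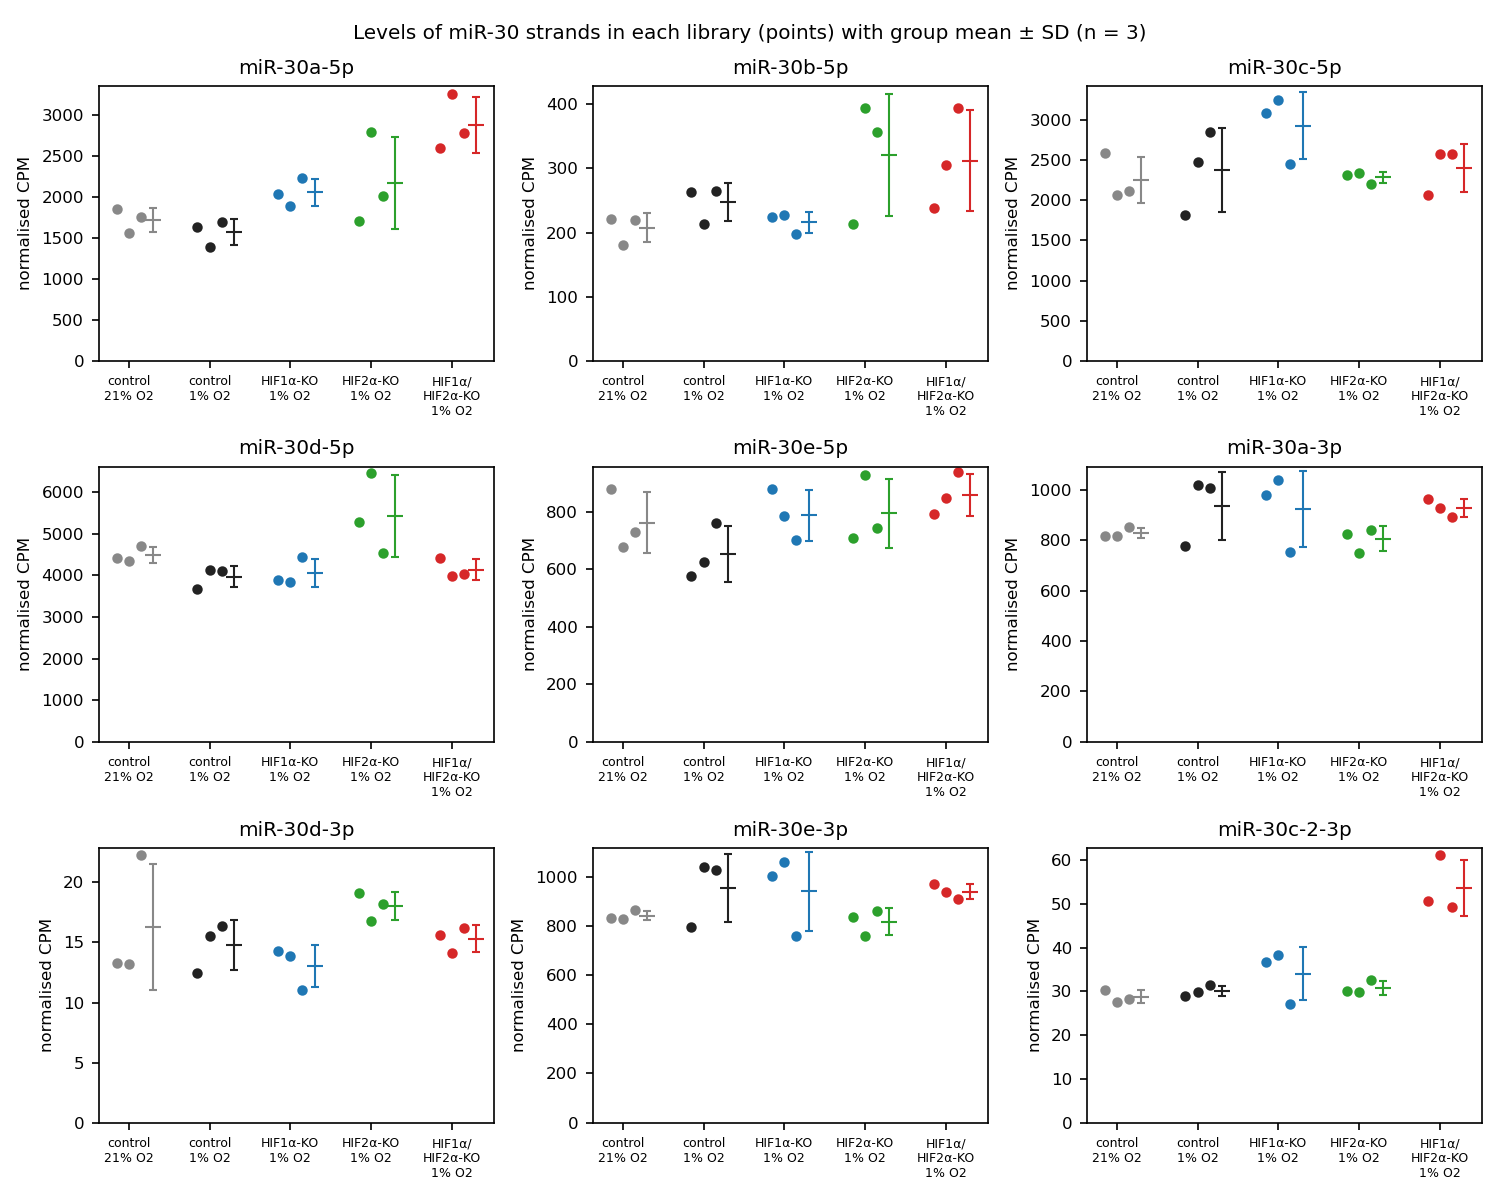
Levels of the 8 miR-30 members and of miR-30c-2-3p, as TMM-normalised CPM on a linear axis from 0 for each of the 5 groups; points are libraries and the bar beside them is the mean ± SD (n = 3). miR-30a-5p and miR-30c-2-3p in HIF1α/HIF2α-KO cells lie above all libraries of hypoxic control cells, at 2597 to 3257 CPM and 49.2 to 61.1 CPM.

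Near-identical strands limit what these levels show. The counts of miR-30a-3p and miR-30e-3p, which differ at position 18, kept almost the same ratio in every library, with a mean log2 ratio of -0.02 and an SD of 0.00764 (n = 15). The counts of miR-30a-5p and miR-30e-5p, which differ at position 13, had a mean log2 ratio of 1.40 and an SD of 0.253. Pairs of the same length that differ at 1 base were sought among 303 listed miRNAs with a RefSeq sequence and a mean count over 50. The search could not include miR-30b-5p, miR-30d-5p and miR-30d-3p, for which no sequence was at hand, so that near-identical partners of theirs were not examined. It found 13 pairs. The 6 that differ at positions 9 to 13 had SDs between 0.184 and 0.513. The 7 that differ at positions 16 to 20 had SDs between 0.00224 and 0.0283. miR-30a-3p and miR-30e-3p are therefore treated here as 1 measurement printed under 2 names, which counts of 8 members include under both names. How reads that match both strands were counted was not tested, and the 3p level of either hairpin alone is taken as unknown. miR-30c-5p, which has 2 hairpins, had an even count in 9 of 15 libraries. Among miRNAs with a mean count over 20, those with 2 hairpins in the RefSeq table had even counts in 69.0% of values. These were 34 miRNAs, miR-30c-5p and miR-199a-3p included. The 350 miRNAs with 1 hairpin had even counts in 50.9% of values. miR-199a-3p and miR-133a-3p, each with 2 hairpins, had even counts in 15 of 15 libraries. Whether all or part of the reads of miR-30c-5p were counted once for each hairpin was not tested, and its level relative to other strands is uncertain to that extent. Its change between groups would depend on this only if the part differed between libraries, which was not tested either.

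In edgeR miR-30a-5p was the only member past the threshold, and it passed in cells with both HIF genes knocked out. Its changes in the single knockouts, smaller and not past the threshold, are given below. Its levels in hypoxic control cells were 1629, 1391 and 1687 CPM, and in HIF1α/HIF2α-KO cells 2597, 3257 and 2775 CPM. The lowest HIF1α/HIF2α-KO library lay above the highest control library. The log2 fold change was 0.87 (SE 0.16, adjusted p = 0.00672, edgeR), which is 1.83-fold. It was the only member of 8 past the threshold, in a comparison in which 33 of 562 miRNAs (5.87%) passed, 7 of them (1.25%) upwards. With total counts in place of TMM factors, 25 of 50 miRNAs past the threshold were higher. Members whose libraries did not overlap between the groups numbered 2 of 8, miR-30a-5p and miR-30e-5p, against 30.4% of all miRNAs tested, and 2 of 8 had an unadjusted p under 0.05, against 24.4%.

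The change of miR-30a-5p held under each of 10 other settings, with log2 fold changes between 0.84 and 0.94 and a largest adjusted p of 0.0169. It held also when any of the 6 libraries was left out, from 0.81 to 0.96, where the adjusted p was 0.0207 to 0.0358. With the miR-126 set as a covariate it was 0.90 (adjusted p = 0.00616). The sets leave too few libraries for a test within them, with 1 library in an arm of each. In the set with more miR-126, control library 1 had 1629 CPM against 2597 and 3257 in HIF1α/HIF2α-KO libraries 1 and 2, and in the set with less, control libraries 2 and 3 had 1391 and 1687 CPM against 2775 in HIF1α/HIF2α-KO library 3. The summed muscle markers were 20.2 to 45.1 CPM in HIF1α/HIF2α-KO and 6.73 to 27.9 CPM in hypoxic control libraries, and their part in the result was not tested.

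The other 5p members moved less in HIF1α/HIF2α-KO cells. miR-30e-5p, which differs from miR-30a-5p at C13U, had 791, 849 and 937 CPM against 575, 625 and 762 CPM in hypoxic control cells. Its groups did not overlap, yet its log2 fold change of 0.39 (SE 0.15) missed the threshold (adjusted p = 0.119, edgeR). With the miR-126 set as a covariate it was 0.48 and passed (adjusted p = 0.0358). miR-30b-5p had a log2 fold change of 0.34 (adjusted p = 0.407) with overlapping libraries, and 0.16 without HIF1α/HIF2α-KO replicate 3. miR-30d-5p (log2 fold change 0.06, 95% interval -0.20 to 0.33) and miR-30c-5p (0.01, -0.34 to 0.37) stayed within intervals that leave out the size of the miR-30a-5p change. The 3p members, with log2 fold changes of -0.01 for miR-30a-3p, -0.02 for miR-30e-3p and 0.05 for miR-30d-3p, did not pass either. All 5 of the 5p members had a log2 fold change above 0, against 48.2% of all miRNAs, with a median of 0.34 against -0.02 over all miRNAs tested. The value of miR-30c-5p was near 0 and fell below it in 5 of the alternatives, down to -0.13 without hypoxic control replicate 1. The 3p members give only 2 separate measurements, the one shared by miR-30a-3p and miR-30e-3p and that of miR-30d-3p, both near 0.

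Of the remaining strands, miR-30c-2-3p rose in HIF1α/HIF2α-KO cells by a similar amount. Its levels were 50.6, 61.1 and 49.2 CPM, against 29.0, 29.9 and 31.4 CPM in hypoxic control cells. The groups did not overlap and the control libraries were close together. The log2 fold change was 0.83 (SE 0.16, adjusted p = 0.00672, edgeR), or 1.78-fold, from 600 to 806 counts per HIF1α/HIF2α-KO library. It was between 0.77 and 0.90 and past the threshold under each of 10 other settings, and between 0.76 and 0.92 and past the threshold without any 1 library. miR-30c-1-3p, from the hairpin next to MIR30E, had 17.6, 14.2 and 17.5 CPM against 16.9, 18.1 and 17.8 CPM, with a log2 fold change of -0.10 (95% interval -0.47 to 0.27), and miR-30b-3p had -0.09. The log2 ratio of miR-30c-2-3p to miR-30c-1-3p within a library was 1.53, 2.10 and 1.49 in HIF1α/HIF2α-KO cells and 0.78, 0.72 and 0.82 in hypoxic control cells, with p = 0.1 in a two-sided exact permutation test, the smallest p that 3 libraries against 3 allow. Both strands past the threshold, miR-30a-5p and miR-30c-2-3p, come from hairpins in LINC00472, as does part of the shared 3p measurement of miR-30a and miR-30e, which was near 0. From hairpins in NFYC, miR-30c-1-3p overlapped with control cells, and miR-30e-5p did not overlap and passed only with the miR-126 covariate. The more abundant miR-30c-5p, which can come from a hairpin in either host, had a log2 fold change of 0.01. A difference between the hosts was not tested, and the transcripts of LINC00472 and NFYC are not part of this assay.

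**Figure D2:**
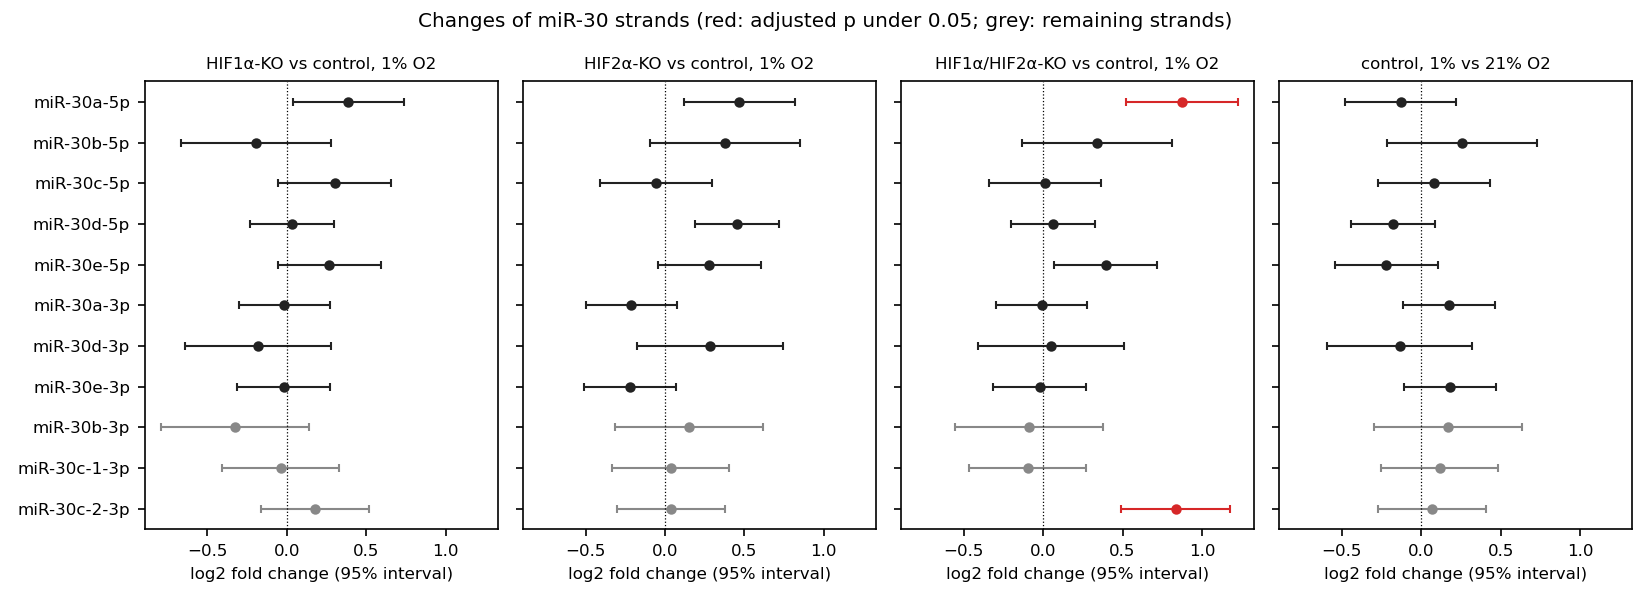
Log2 fold changes of 11 miR-30 strands with 95% intervals from edgeR in 4 comparisons; black points are members, grey points the remaining strands, and red points passed an adjusted p of 0.05. The red points are miR-30a-5p (0.87) and miR-30c-2-3p (0.83), both in HIF1α/HIF2α-KO cells against hypoxic control cells.

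In single knockouts the mean level of miR-30a-5p lay between those of the hypoxic control and the double knockout. In HIF1α-KO cells its levels were 2039, 1891 and 2225 CPM, with a log2 fold change of 0.39 against hypoxic control cells (SE 0.16, adjusted p = 0.328, edgeR). In HIF2α-KO cells they were 1709, 2790 and 2011 CPM, with a log2 fold change of 0.47 (SE 0.16, adjusted p = 0.219). HIF2α-KO replicate 2 lay above HIF1α/HIF2α-KO libraries 1 and 3 (2597 and 2775 CPM), so that these 2 groups overlapped. Neither single knockout overlapped with the control, and neither passed the threshold. The HIF2α-KO value rested partly on replicate 2, without which it was 0.22. Contrasts chosen after these values were seen compared the double with each single knockout. miR-30a-5p was higher than in HIF1α-KO cells by 0.49 (adjusted p = 0.152; 1.42% of miRNAs passed) and than in HIF2α-KO cells by 0.41 (adjusted p = 0.169; 1.78% passed), and neither difference passed. The latter was 0.64 without HIF2α-KO replicate 2. The interaction, the part of the double knockout's log2 change that the sum of both single changes does not give, was 0.02 (95% interval -0.47 to 0.51, adjusted p = 0.969). The interval is wide, so that an interaction of up to 0.51 in size cannot be told from 0 here.

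The pattern of miR-30c-2-3p over the groups differed in its values. In HIF1α-KO cells it had 36.7, 38.4 and 27.1 CPM (log2 fold change 0.18, adjusted p = 0.752, edgeR), and in HIF2α-KO cells 30.1, 29.8 and 32.7 CPM (0.04, adjusted p = 0.948). Both overlapped with the hypoxic control. It was higher in the double knockout than in HIF2α-KO cells by 0.80 (adjusted p = 0.0161). This call was lost without HIF2α-KO replicate 1 (adjusted p = 0.0692), HIF2α-KO replicate 2 (0.0701) or HIF1α/HIF2α-KO replicate 1 (0.0643), without a filter on low counts (0.0563) and in a fit of these 2 groups alone (0.195). Against HIF1α-KO cells the difference was 0.66 (adjusted p = 0.0586), which passed with DESeq2 (adjusted p = 0.00524) and with limma (0.0414). The interaction was 0.62 (95% interval 0.14 to 1.10) with an unadjusted p of 0.0154 and an adjusted p of 0.393 in edgeR. Over all miRNAs, 0 passed in the interaction in edgeR and DESeq2 (5 in edgeR without a filter on low counts), and 10.5% had an unadjusted p under 0.05 in edgeR.

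HIF1α-KO cells showed no call in the family. Against hypoxic control cells 0 of 8 members passed, in a comparison in which 1.25% of miRNAs did, and 1 of 8 had an unadjusted p under 0.05, against 11.9%. The only member without overlap was miR-30a-5p, against 21.5% of all miRNAs. Log2 fold changes ran from -0.20 for miR-30b-5p to 0.39 for miR-30a-5p. miR-30c-5p had 3086, 3252 and 2460 CPM against 1816, 2476 and 2851 CPM (log2 fold change 0.30, adjusted p = 0.484). The 3p members had values of -0.02, -0.18 and -0.02 for miR-30a-3p, miR-30d-3p and miR-30e-3p. Above 0 were 4 of 5 5p members, against 44.1% of all miRNAs, and neither of the separate 3p measurements, although the shared one was above 0 with total counts and with limma.

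In HIF2α-KO cells the most abundant member, miR-30d-5p, lay higher without passing the test. Its levels were 5289, 6465 and 4530 CPM, against 3672, 4128 and 4094 CPM in hypoxic control cells. The groups did not overlap, and the HIF2α-KO libraries spread widely. The log2 fold change was 0.45 (SE 0.12, adjusted p = 0.124, edgeR), and it missed the threshold in all 10 other settings, with values between 0.32 and 0.53. Without HIF2α-KO replicate 2 it was 0.28. Against HIF1α-KO cells, with 3890, 3828 and 4439 CPM, it was 0.42 (SE 0.12, adjusted p = 0.10), and 0.22 without HIF2α-KO replicate 2. In HIF1α/HIF2α-KO cells miR-30d-5p was at 4419, 3980 and 4020 CPM, within the range of the other groups. For this comparison of HIF2α-KO with control cells, 0 of 562 miRNAs passed in edgeR and DESeq2 (11 in edgeR without a filter), and 15.3% had an unadjusted p under 0.05 in edgeR. Of the members 2 of 8 had an unadjusted p under 0.05, 3 of 8 did not overlap with control cells (miR-30a-5p, miR-30d-5p and miR-30d-3p), against 16.4% of all miRNAs, and 5 of 8 were above 0, against 48.6%.

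Between HIF2α-KO and HIF1α-KO cells, 0 of 8 members passed, against 1.07% of all miRNAs, while 4 of 8 had an unadjusted p under 0.05, against 17.4%. Their directions differed. miR-30b-5p (0.57, adjusted p = 0.209, edgeR), miR-30d-5p (0.42) and miR-30d-3p (0.46) were higher in HIF2α-KO cells, and miR-30c-5p was lower (-0.36, adjusted p = 0.280). Groups without overlap were those of miR-30d-5p, miR-30d-3p and miR-30c-5p, 3 of 8 members against 20.5% of all miRNAs. The knockout comparisons with hypoxic control cells share the 3 control libraries.

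The oxygen condition alone gave no call. Between hypoxic and normoxic control cells 0 of 562 miRNAs passed in edgeR, 6.23% had an unadjusted p under 0.05, and among the members 0 of 8 did. DESeq2 also called 0, and edgeR without a filter called 15. Log2 fold changes of the members ran from -0.22 (miR-30e-5p) to 0.25 (miR-30b-5p). miR-30d-5p was the 1 member without overlap, at 3672 to 4128 CPM in hypoxia and 4350 to 4707 CPM in normoxia, against 17.8% of all miRNAs. miR-30a-5p had 1846, 1559 and 1748 CPM in normoxia, overlapping with hypoxic control cells, and its log2 fold change was -0.13 (95% interval -0.48 to 0.22).

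The counts of 5p and 3p strands differed greatly in their proportion between hairpins. miR-30d-5p was counted 290 ± 51.9 (SD, n = 15) times for each miR-30d-3p, which placed MIR30D at rank 8 of 142 hairpin names by its median ratio. miR-30b-5p exceeded miR-30b-3p by 28.3 ± 7.03 times (rank 31). For miR-30a the ratio was 2.38 ± 0.680 (rank 57), and for miR-30e 0.868 ± 0.153 (rank 75), with the 5p strand the higher in 15 of 15 and in 3 of 15 libraries. Over the 142 names, the 5p strand was the higher in 49.3%. Since the 3p counts of miR-30a and miR-30e are treated as 1 measurement, these 2 ratios have nearly the same denominator. The sum of both 5p strands was 3.21 ± 0.804 times the miR-30e-3p count.

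The change of the 5p to 3p ratio passed the test for 0 of 142 hairpin names in each of the 5 comparisons. For miR-30a the log2 ratios were 1.43, 1.81 and 1.63 in HIF1α/HIF2α-KO cells and 1.06, 0.45 and 0.75 in hypoxic control cells, without overlap. The change was 0.87 (SE 0.24, adjusted p = 0.153, edgeR). For miR-30e the ratios were -0.29, -0.14 and 0.04 against -0.47, -0.73 and -0.43, again without overlap, and the change was 0.41 (adjusted p = 0.258), in a comparison in which 14.1% of names had an unadjusted p under 0.05. In HIF2α-KO cells the changes were 0.65 for miR-30a (adjusted p = 0.261) and 0.49 for miR-30e (adjusted p = 0.210), with 12.0% of names at an unadjusted p under 0.05. Without HIF2α-KO replicate 2 they were 0.40 and 0.32. The ratio of miR-30d changed by 0.01 in HIF1α/HIF2α-KO cells (SE 0.22, adjusted p = 1). Because their 3p counts are treated as 1 measurement, the miR-30a and miR-30e ratios are no separate evidence of a change in strand use.

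The make-up of the 5p pool was compared as the share of each member. miR-30a-5p held 27.1% ± 2.25 (SD, n = 3) of the summed 5p members in HIF1α/HIF2α-KO cells and 17.9% ± 2.40 in hypoxic control cells. It held 18.2% ± 0.479 in normoxia, 20.4% ± 1.64 in HIF1α-KO and 19.6% ± 2.55 in HIF2α-KO cells. The double knockout did not overlap with any other group (25.7% to 29.7%, against at most 22.2% elsewhere), with p = 0.1 in a two-sided exact permutation test against hypoxic control cells, the smallest the design allows, so that no share can pass a threshold of 0.05. The other 4 shares overlapped between these groups, with p from 0.2 to 0.9 in the same test. miR-30d-5p held 39.2% ± 3.97 in HIF1α/HIF2α-KO and 45.1% ± 2.36 in hypoxic control cells. The sum of the 5p members was 10591 ± 440 CPM in HIF1α/HIF2α-KO cells and 8816 ± 853 CPM in hypoxic control cells. It was 10040 ± 68.8 CPM in HIF1α-KO, 11002 ± 1674 in HIF2α-KO and 9431 ± 562 in normoxic control cells.

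The sum of the 5p members varied little over the 15 libraries, with an SD of 0.157 in log2 CPM. The 5 tested miRNAs outside the family with the most similar pattern, by the root-mean-square difference in log2 CPM after each was centred on its own mean, were miR-148b-3p (0.101), miR-548k (0.111), miR-361-3p (0.116), miR-708-5p (0.120) and miR-29a-3p (0.121), where the median over 551 miRNAs was 0.370. These values describe 15 libraries that share their normalization, and miRNAs that vary little are near each other by this measure.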

How the data were processed

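miRNA-Seq libraries of U87-MG cells (5 groups, 3 each) were grouped by the genotype, oxygen and replicate in their labels. Per mature miRNA the authors deposited a read count, a whole number that was not normalized. The submitters' processing notes name HISAT2, StringTie and DESeq2. Their roles and versions, the build and the handling of reads that match several miRNAs are not given in the sources used here. The study's methods name quantile normalization with limma, which was tried as an alternative.

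Counts of all 15 libraries were fitted with edgeR 4.0.16 (R 4.3.3; TMM factors between 0.898 and 1.09, filterByExpr, a mean for each group, quasi-likelihood test), with Benjamini-Hochberg adjustment over the 562 miRNAs tested and a threshold of 0.05. Ratios of 5p to 3p counts were tested in edgeR with the library as a block over 142 hairpin names. Single values were tested with two-sided exact permutation tests. Alternatives were DESeq2 1.42.0 and its size factors, total counts, limma 3.58.1, other filters, fits of 2 groups, the replicate number as a block, miR-21-5p left out, the miR-126 set as a covariate, and each library left out. The fits were tested on simulated data. No replicates were copies of each other (smallest chi-square per degree of freedom 49.3). Log2 fold changes have no added pseudocount beyond that of edgeR.

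The members and lists were chosen with earlier results of these data known. Named are the 8 members, the 3 remaining strands, miR-210-3p, the marker miRNAs and the 5 miRNAs most like the summed 5p members. Intervals and floors from depth cover counting error only.
The contrasts of the double with each single knockout, the interaction, and the alternatives for the 3 remaining strands were chosen after seeing the data.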

Additional observations from a re-analysis of the deposited data

How the results depend on the processing

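The calls of miR-30a-5p and miR-30c-2-3p in HIF1α/HIF2α-KO against control cells held under all 10 other settings and without any 1 library. The members past the threshold there numbered 2 with the miR-126 set as a covariate, where miR-30e-5p joined. Counts over all miRNAs moved more. In HIF1α/HIF2α-KO against control cells 50 passed with total counts, 60 with DESeq2 and 61 with the miR-126 covariate, against 33, of which 25, 23 and 29 were higher, against 7. In HIF2α-KO against HIF1α-KO cells 12 passed with total counts, 20 with DESeq2, 14 without a filter, 14 with at least 10 counts in every library, 3 with the replicate block and 0 in a fit of the 2 groups, against 6. In HIF1α-KO against control cells 12 passed with DESeq2 and 0 in the fit of 2 groups, against 7. Without a filter 11 passed in HIF2α-KO against control cells and 15 between hypoxic and normoxic control cells and 5 in the interaction, against 0 in each. In HIF1α/HIF2α-KO against HIF1α-KO cells 25 passed with DESeq2, 16 with limma, 26 without a filter, 5 with the miR-126 covariate, 4 with at least 10 counts and 0 in the fit of 2 groups, against 8. Against HIF2α-KO cells 19 passed with DESeq2, 16 with total counts, 21 without a filter and 2 in the fit of 2 groups, against 10; without 1 library these counts were 0 to 14 and 2 to 17. Hairpins past the threshold in the 5p to 3p ratio in HIF1α/HIF2α-KO cells numbered 1 with at least 10 counts of both arms and 5 with the miR-126 covariate, none of them miR-30a, miR-30d or miR-30e. Shares of the 5p members are lower by construction over the sum of all 8 members (for miR-30a-5p in HIF1α/HIF2α-KO cells 23.0% in place of 27.1%).

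Without 1 library, the count in HIF1α/HIF2α-KO against control cells was 15 to 32, lowest without HIF1α/HIF2α-KO 1 and 18 without HIF1α/HIF2α-KO 3, control 1 or control 2. In HIF1α-KO against control cells it was 2 to 6, with 2 without HIF1α-KO 1 or 2 or control 1 and 4 without HIF1α-KO 3. In HIF2α-KO against control cells it was 0 to 10, with 10 without HIF2α-KO 1, and hairpins numbered 0 to 10. In HIF2α-KO against HIF1α-KO cells it was 2 to 18, with 2 without HIF1α-KO 2, 3 without HIF2α-KO 2 and 18 without HIF1α-KO 3, and hairpins numbered 0 to 4. The cause was not tested.

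Changes that reversed were near 0 and not called. In HIF1α-KO against control cells, miR-30a-3p and miR-30e-3p were 0.023 and 0.018 with total counts, 0.079 and 0.073 with limma, 0.020 and 0.015 without a filter, and 0.040 and 0.035 in the fit of 2 groups. In HIF1α/HIF2α-KO against control cells miR-30a-3p was 0.0028 with DESeq2 size factors, 0.0027 with DESeq2, and miR-30a-3p and miR-30e-3p were 0.052 and 0.039 with total counts, 0.020 and 0.0065 without a filter, and 0.047 and 0.035 with the miR-126 covariate. There miR-30c-5p was -0.017 with at least 10 counts and -0.0038 in the fit of 2 groups, and the miR-30d ratio -0.023 with the miR-126 covariate. miR-30c-2-3p in HIF2α-KO cells was -0.10 with total counts, which put the median of all miRNAs there at -0.15 (-0.13 in HIF2α-KO against HIF1α-KO cells and 0.18 in the interaction), and -0.010 without a filter. With the miR-126 covariate miR-30c-5p was 0.057 in HIF2α-KO cells and -0.12 between hypoxia and normoxia. In HIF2α-KO against HIF1α-KO cells miR-30a-5p was -0.11 with total counts and -0.0093 without a filter, and miR-30e-5p was -0.17 with total counts, -0.15 with limma, -0.077 without a filter, -0.034 without miR-21-5p, -0.017 with at least 10 counts and -0.045 in the fit of 2 groups. The interaction of miR-30a-5p was -0.039 with at least 10 counts.

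Without 1 library, changes that reversed ranged as follows. In HIF1α-KO against control cells the ranges were -0.035 to 0.10 (miR-30d-5p), -0.10 to 0.11 (miR-30a-3p) and -0.11 to 0.11 (miR-30e-3p). In HIF2α-KO against control cells they were -0.22 to 0.11 (miR-30c-5p), -0.069 to 0.083 (miR-30c-2-3p) and -0.035 to 0.28 (miR-30d ratio). In HIF1α/HIF2α-KO against control cells they were -0.13 to 0.19 (miR-30c-5p), -0.041 to 0.15 (miR-30d-3p), -0.10 to 0.080 (miR-30a-3p), -0.12 to 0.066 (miR-30e-3p), -0.14 to 0.027 (miR-30c-1-3p) and -0.045 to 0.072 (miR-30d ratio). Between hypoxia and normoxia they were -0.079 to 0.23 (miR-30c-5p), -0.29 to 0.16 (miR-30d-3p) and -0.30 to 0.037 (miR-30d ratio). In HIF2α-KO against HIF1α-KO cells they were -0.19 to 0.18 (miR-30a-5p), -0.16 to 0.076 (miR-30e-5p), -0.24 to 0.12 (miR-30d ratio) and -0.0082 to 0.44 (miR-30a ratio). The interaction of miR-30a-5p ranged from -0.13 to 0.23. Among changes that kept their sign without passing, those without 1 library ranged in HIF1α-KO against control cells from 0.17 to 0.48 (miR-30c-5p), and in HIF2α-KO against HIF1α-KO cells from 0.35 to 0.76 (miR-30b-5p), 0.22 to 0.45 (miR-30d-5p) and 0.30 to 0.50 (miR-30d-3p).

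Same-numbered libraries had correlations of their deviations from -0.64 to 0.61 in the 5 comparisons, so that the numbers were not taken as pairs. The replicate block gave 33 miRNAs in HIF1α/HIF2α-KO against control cells and changed no call of a member. Depth limits the 3p strands of miR-30b, miR-30c and miR-30d, and the counting of near-identical strands limits miR-30a-3p and miR-30e-3p at any depth.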

Other observations

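The promoter windows of the host genes NFYC and LINC00472 (RefSeq, GRCh38.p14, the stretch around each annotated start) were searched for ACGTG and GCGTG on both strands. These letters occur in the core of hypoxia response elements. The host gene AL136164.2 was not searched. At least 1 match was present in 48.4% of 35116 promoters, a set that leaves out those on chr8. The 3 windows of NFYC held 1, 2 and 0 matches, and the window of LINC00472 held 0. A match in a window is a description of its letters.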
